A study of Saccharomyces cerevisiae with 2 samples.

Results

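The tRNAs for serine and leucine were examined in CRAC data from yeast. CRAC is cross-linking and analysis of cDNA: RNA is cross-linked to a protein in living cells by ultraviolet light, purified with that protein, trimmed by RNase and sequenced as cDNA. The members are all features of the tRNA section of the count tables whose name begins with tS( or tL(, without the mitochondrial ones. The rule gave 31 genes of 5758 listed features, 14 for serine tRNAs in 2 anticodons and 17 for leucine tRNAs in 4 anticodons, and all 31 had reads in both libraries. The comparison was between a Saccharomyces cerevisiae strain expressing Sni445-HTP from its chromosomal locus, where HTP is a C-terminal tag of His6, a TEV protease site and protein A, and an untagged wild-type strain as negative control. Both cultures were grown to an OD of 0.6 in glucose medium lacking tryptophan, cross-linked for 100 s and taken through 2 purification steps and 16 PCR cycles. There was 1 library per strain, so no value below has a replicate error, no p-value was computed, and every interval is a 95% interval for counting error only. Intervals on reads take each read as independent, so they are too narrow where a cDNA was read many times.

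Serine and leucine tRNAs carry N4-acetylcytidine in the D arm. The acetyl group is added by Kre33, the yeast relative of human NAT10, which needs the adaptor Tan1 to act on tRNAs and uses box C/D snoRNAs to reach its targets in 18S rRNA. These 2 families are also the long variable arm tRNAs of the yeast nucleus, in which the aminoacyl-tRNA synthetases Ses1 (serine) and Cdc60 (leucine) charge several anticodons each.

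The mature sequence of each serine and leucine anticodon is shown because the acetylated base lies in a motif that all of them share. Sequences are those of the R64 RefSeq annotation, written as DNA without intron. Capitals mark bases 11 to 13 from the 5′ end, which hold the acetylated cytidine at position 12, and the anticodon.
Ser(AGA): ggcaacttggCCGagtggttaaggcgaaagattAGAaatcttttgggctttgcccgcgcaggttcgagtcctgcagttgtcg
Ser(GCU): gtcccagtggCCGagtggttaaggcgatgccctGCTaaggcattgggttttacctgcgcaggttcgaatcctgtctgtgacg
Leu(CAA): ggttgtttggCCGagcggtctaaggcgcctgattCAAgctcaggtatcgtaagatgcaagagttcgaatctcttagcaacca
Leu(UAA): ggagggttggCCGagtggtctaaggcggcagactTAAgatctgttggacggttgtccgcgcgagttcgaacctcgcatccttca
Leu(UAG): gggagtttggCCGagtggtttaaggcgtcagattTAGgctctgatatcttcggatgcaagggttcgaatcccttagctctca
Leu(GAG): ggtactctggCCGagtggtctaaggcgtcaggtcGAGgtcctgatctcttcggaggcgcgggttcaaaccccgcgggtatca
The rule by name left out 8 further nuclear serine and leucine tRNA genes that the tables list under genetic names, and 2 further anticodons with them. Through the R64 annotation, SUP16, SUP17 and SUP19 are the genes of Ser(UGA), SUP61 is the gene of Ser(CGA), SUP51 is a copy of Leu(UAA), and SUP53, SUP54 and SUP56 are copies of Leu(CAA). Their values are given apart, and they were kept out of the other tRNAs.
Ser(UGA): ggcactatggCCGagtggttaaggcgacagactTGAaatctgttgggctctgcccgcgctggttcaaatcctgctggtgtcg
Ser(CGA): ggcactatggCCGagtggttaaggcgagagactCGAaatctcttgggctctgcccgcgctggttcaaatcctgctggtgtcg

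All 40 nuclear genes of the 2 families in R64, with tX(XXX)D, a gene of undetermined specificity that resembles serine tRNA genes, counted among them, had CCG at bases 11 to 13, against 0 of the 235 other nuclear tRNA genes. Their mature length as annotated was 80 to 100 nt with a median of 82 nt, tX(XXX)D being the longest, against 71 to 75 nt with a median of 73 nt in the others. In all comparisons of reads and cDNAs, tX(XXX)D is instead counted among the other nuclear tRNAs. Ser(UGA) and Ser(CGA) were 96.3% identical and differed at 3 bases, and Ser(AGA) was 85.5% identical to each. Among leucine tRNAs, Leu(CAA) and Leu(UAG) were 78.0% identical and Leu(GAG) and Leu(UAG) 75.6%. Copies of 1 anticodon were identical in R64 except for 1 of 11 Ser(AGA) genes, of 83 nt, and 1 of 3 Ser(GCU) genes, of 80 nt. Reads that match several copies had been placed at random, so the gene copies of an anticodon were summed before libraries were compared, and copies are not replicates.

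The libraries held 26984818 sense counts in Sni445-HTP cells and 22960662 in untagged cells. The nuclear tRNAs made up 0.0602% of the sense counts in Sni445-HTP cells, against 3.47% in untagged cells. With Sni445-HTP, the snoRNA SNR4 alone took 47.4% and SNR45 32.1% of the counts, against 1.05% and 0.378% in untagged cells, so the share of every other RNA is set in part by these snoRNAs. For this reason each tRNA is given by its share of all sense counts and by its share of the nuclear tRNA counts, which SNR4 and SNR45 do not enter. In what follows, reads in Sni445-HTP cells and in untagged cells are reads of the RNA recovered through the purification from each strain, not the amount of the tRNA in the cells. The tables also give the number of distinct cDNAs per feature, where repeated reads of a cDNA count once.

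The serine and leucine tRNAs together were a smaller part of the library in Sni445-HTP cells than of the untagged control, and a smaller part of the tRNAs in it. They had 1554 reads in Sni445-HTP cells and 140989 in untagged cells. This was 0.00576% of all sense counts in Sni445-HTP cells (95% interval 0.00548 to 0.00605), against 0.614% in untagged cells (0.611 to 0.617), a ratio of 0.00938 (0.00892 to 0.00986). The size of this ratio depends on the denominator: in cDNAs it was 0.388 (0.359 to 0.419), and with rRNA, snR4, snR45 and intergenic features left out of the read counts it was 0.415. Of the nuclear tRNA reads they were 9.56% in Sni445-HTP cells (9.12 to 10.03), against 17.7% in untagged cells (17.6 to 17.8), a ratio of 0.540 (0.514 to 0.568). In distinct cDNAs the members had 766 in Sni445-HTP cells and 4917 in untagged cells. The share of nuclear tRNA cDNAs was 14.3% in Sni445-HTP cells and 19.5% in untagged cells, a ratio of 0.735 (0.680 to 0.793). No antisense read fell on any member in either library.

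Gene by gene, all 31 members had at least 10 reads over both libraries. The share of all sense counts was at least 2 times that of the control for 1 member and at most 0.5 of it for 30. Of the 1646 features with at least 10 reads, 32.7% were higher and 64.9% lower by the same rule. Of 235 other nuclear tRNA genes, 6 were higher and 223 lower, so a lower share was general among tRNA genes. The median ratio was 0.0127 over the members, 0.0234 over 235 other nuclear tRNA genes and 0.0335 over all 1646 features. In cDNAs 1 member was higher and 17 were lower, against 18.4% and 52.7% of 1834 features. Of 228 other nuclear tRNA genes, 34 were higher and 83 lower in cDNAs. The median in cDNAs was 0.499 over the members, 0.644 over these 228 genes and 0.475 over all features. The members' median was thus below that of all features in reads and not in cDNAs. As shares of nuclear tRNA reads, 4 members were higher by 2 times or more and 10 were at 0.5 or less, against 34% and 19.1% of the other nuclear tRNA genes. The median ratio was then 0.734 over the members and 1.35 over the other tRNA genes. In cDNAs of nuclear tRNAs, 4 members were higher and 11 lower, against 32% and 6.14% of the others, and the medians were 0.943 and 1.22. By these tRNA shares the lower members were copies of Ser(AGA), except tS(GCU)L in both measures and tL(UAA)D in reads. Copies of an anticodon are not independent, so the counts of lower members mostly describe Ser(AGA).

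Summed over their named anticodons, the families differed from each other by more than their counting intervals, in reads and in cDNAs. Most of the serine control reads, 82420 of 92993, were on Ser(AGA). The other named serine anticodon, Ser(GCU), had a ratio of nuclear tRNA shares of 0.844 (0.725 to 0.977). This overlapped that of Leu(CAA), 0.866 (0.798 to 0.938), so the difference does not hold for every anticodon. The serine tRNAs had 474 reads in Sni445-HTP cells and 92993 in untagged cells, and the leucine tRNAs had 1080 in Sni445-HTP cells and 47996 in untagged cells. The serine tRNAs were 2.92% of nuclear tRNA reads in Sni445-HTP cells and 11.7% in untagged cells, a ratio of 0.250 (0.228 to 0.273). The leucine tRNAs were 6.65% in Sni445-HTP cells and 6.03% in untagged cells, a ratio of 1.10 (1.04 to 1.17). The nuclear tRNAs include the serine tRNAs, whose share was lower in Sni445-HTP cells, and set against the other nuclear tRNAs alone the leucine tRNAs turned direction. That odds ratio was 0.881 (0.827 to 0.938) in reads, 1.24 (1.17 to 1.33) in reads without Arg(UCU) and 0.956 (0.862 to 1.06) in cDNAs. For the serine tRNAs it was 0.200 (0.182 to 0.219) in reads, 0.282 without Arg(UCU) and 0.360 (0.314 to 0.412) in cDNAs. Per 100 serine reads there were 227.8 leucine reads in Sni445-HTP cells and 51.6 in untagged cells, an odds ratio of 4.41 (3.96 to 4.93). The order of the families was therefore opposite in the libraries. In cDNAs the leucine to serine odds ratio was 2.66 (2.25 to 3.13). Without the copy tS(AGA)D1, which had most of the Ser(AGA) reads in untagged cells, leucine exceeded serine reads in both libraries, at 304.2 per 100 in Sni445-HTP cells and 106.8 per 100 in untagged cells, and the odds ratio was 2.85 (2.52 to 3.23).

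**Figure D1:**
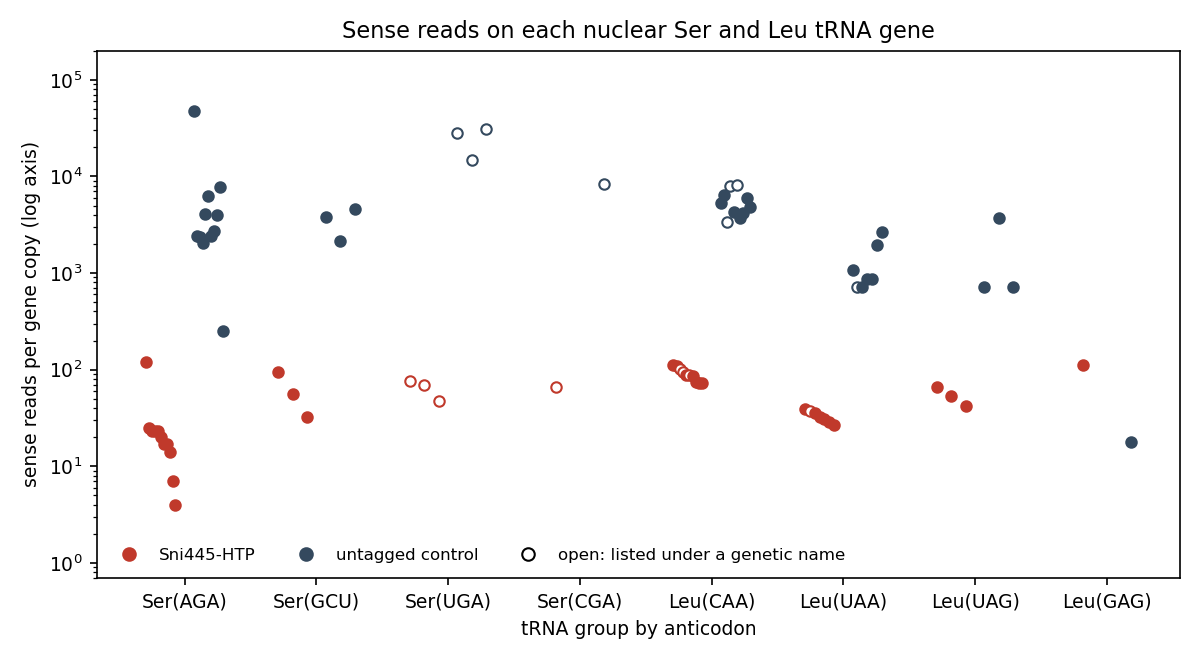
Sense reads on each nuclear serine and leucine tRNA gene, by anticodon, on a log axis. Each point is 1 gene in 1 library, Sni445-HTP at the left and the untagged control at the right of each anticodon, and open points are the 8 genes under genetic names. Control reads exceed Sni445-HTP reads for every gene but tL(GAG)G, with 113 Sni445-HTP reads and 18 control reads, and the control point far above the other Ser(AGA) copies is tS(AGA)D1 with 48046 reads.

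Ser(AGA), which reads the most used serine codons and has the most gene copies of the 2 families, had the lowest ratio of the 6 anticodons. Its 11 copies had 292 reads in Sni445-HTP cells and 82420 in untagged cells, which were 1.80% of nuclear tRNA reads in Sni445-HTP cells and 10.3% in untagged cells, a ratio of 0.174 (0.154 to 0.195). Its cDNAs numbered 163 in Sni445-HTP cells and 2360 in untagged cells, a ratio of 0.326 (0.276 to 0.382). The copies had 4 to 119 reads in Sni445-HTP cells, with a median of 20, and 251 to 48046 in untagged cells, with a median of 2713. The copy tS(AGA)D1 held 119 of the reads in Sni445-HTP cells and 48046 of those in untagged cells. Its cDNAs numbered 35 in Sni445-HTP cells and 724 in untagged cells. The copy tS(AGA)D3 had the fewest, 4 reads in Sni445-HTP cells and 251 in untagged cells. Apart from these, 9 copies had 7 to 25 reads in Sni445-HTP cells and 2040 to 7706 in untagged cells. Within these 9, tS(AGA)J was lowest in Sni445-HTP cells, at 7 reads, and highest in untagged cells, at 7706, and tS(AGA)G had 20 reads in Sni445-HTP cells and 6348 in untagged cells. In cDNAs tS(AGA)J was not highest in untagged cells, with 170 where the 9 copies had 154 to 284. The 83 nt gene lies on chromosome IV in R64, where D1, D2 and D3 also lie, and the copies there were not matched one by one.

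Ser(GCU), which reads the AGC and AGU serine codons, had 182 reads in Sni445-HTP cells and 10573 in untagged cells, which were 1.12% of nuclear tRNA reads in Sni445-HTP cells and 1.33% in untagged cells, a ratio of 0.844 (0.725 to 0.977). It had 88 cDNAs in Sni445-HTP cells and 414 in untagged cells, and the ratio was 1.00 (0.787 to 1.26). Against the other nuclear tRNAs alone, its odds ratio was 0.674 (0.578 to 0.781) in reads, 0.952 (0.816 to 1.10) in reads without Arg(UCU) and 0.846 (0.663 to 1.07) in cDNAs. Under the 30 limit on read length its tRNA share ratio was 109, on 7 control reads. The copies tS(GCU)F, tS(GCU)O and tS(GCU)L had 94, 56 and 32 reads in Sni445-HTP cells, against 3836, 2133 and 4604 in untagged cells, so the lowest copy in Sni445-HTP cells was the highest in untagged cells. The gene tS(GCU)L is the 80 nt gene in R64, where its specificity is noted as undetermined.

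Of the serine anticodons under genetic names, Ser(UGA) had 193 reads in Sni445-HTP cells and 74086 in untagged cells, a tRNA share ratio of 0.128 (0.110 to 0.147), and 0.182 (0.144 to 0.226) in cDNAs. Its copies SUP16, SUP17 and SUP19 had 47 to 76 reads in Sni445-HTP cells and 14810 to 31030 in untagged cells. Ser(CGA), the product of the single essential gene SUP61, had 66 reads in Sni445-HTP cells and 8257 in untagged cells, a ratio of 0.392 (0.303 to 0.499) in reads and 0.707 (0.424 to 1.12) in cDNAs. The intervals of the near-identical Ser(UGA) and Ser(CGA) did not overlap in either measure, though reads that fit both genes could not be told apart here. With all 39 nuclear genes of the families, serine and leucine tRNAs were 13.1% of nuclear tRNA reads in Sni445-HTP cells and 30.6% in untagged cells, a ratio of 0.429 (0.411 to 0.448), and 0.604 (0.565 to 0.644) in cDNAs.

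Leu(CAA), which reads the UUG codon, had the most reads of the leucine tRNAs in both libraries. The 7 copies named by the rule had 612 reads in Sni445-HTP cells and 34660 in untagged cells, a tRNA share ratio of 0.866 (0.798 to 0.938), and 0.912 (0.804 to 1.03) in cDNAs. With the 3 copies under genetic names, the 10 copies had 72 to 111 reads in Sni445-HTP cells and 3373 to 8250 in untagged cells, the narrowest spread of the anticodons with over 5 copies in untagged cells. The direction of this ratio turned when Arg(UCU) was left out of the tRNAs, which gave 1.18. It was 0.692 (0.636 to 0.750) against the other nuclear tRNAs alone, and 0.976 (0.897 to 1.06) against these without Arg(UCU).

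Leu(UAA), which reads the UUA codon, had 194 reads in Sni445-HTP cells and 8153 in untagged cells, a ratio of 1.17 (1.01 to 1.35) in reads and 1.15 (0.916 to 1.43) in cDNAs. Among reads within the limit of 30 on read length its ratio was 16.4 (11.7 to 23.2), and without Arg(UCU) among all reads it was 1.59. Against the other nuclear tRNAs alone its odds ratio was 0.932 (0.803 to 1.08). With SUP51, the 7 copies had 27 to 39 reads in Sni445-HTP cells and 714 to 2690 in untagged cells. The copies tL(UAA)D and tL(UAA)B1 had 27 and 29 reads in Sni445-HTP cells, the 2 lowest values there, and 2690 and 1961 reads in untagged cells, over 2 times the median of 862. Their control cDNAs, 65 and 74, were within the range of the other copies.

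Leu(UAG), which reads CUN codons, had 161 reads in Sni445-HTP cells and 5165 in untagged cells, a ratio of 1.53 (1.298 to 1.788). The direction turned with read length: the ratio was 0.256 (0.198 to 0.326) among reads within the limit of 30 and 5.23 (4.202 to 6.445) among longer reads. It had 75 cDNAs in Sni445-HTP cells and 135 in untagged cells, and the ratio was 2.62 (1.95 to 3.50). Its copies tL(UAG)J, tL(UAG)L1 and tL(UAG)L2 had 42, 53 and 66 reads in Sni445-HTP cells, against 723, 3725 and 717 in untagged cells. The control reads of tL(UAG)L1 were 5.15 times the median of the copies and came from 42 cDNAs, the fewest of the 3. They included 2692 of the 3632 control reads of Leu(UAG) within the limit of 30. The part of repeated reads in the turn with read length was not tested.

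Leu(GAG), the product of the single gene tL(GAG)G, was the only member with more reads in Sni445-HTP cells than in untagged cells. It had 113 reads in Sni445-HTP cells and 18 in untagged cells. Its cDNAs numbered 31 in Sni445-HTP cells and 3 in untagged cells. Its share of all sense counts was 5.34 times that of the control (3.23 to 9.34), and its share of nuclear tRNA reads 307.7 times (186 to 538). In cDNAs the ratio of nuclear tRNA shares was 48.7 (15.2 to 249), an interval set by the 3 control cDNAs. In R64 the gene lies on chromosome VII from 700675 to 700756 on the plus strand, has no intron and overlaps no other gene. The nearest gene, YNCG0029C, starts 197 nt to its right, and VOA1, which codes for a factor of vacuolar ATPase assembly, lies 889 nt to its left.

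Among the 6 anticodons, 1 had a share of nuclear tRNA reads at least 2 times that of the control, Leu(GAG), and 1 a share at most 0.5 of it, Ser(AGA). Of the 35 other nuclear tRNA groups, 25.7% were higher and 14.3% lower by the same rule. In cDNAs 2 of the 6 were higher, Leu(GAG) and Leu(UAG), and 1 lower, Ser(AGA), against 37.1% and 2.86% of the other groups. With 6 anticodons, the number with a raised share was near that background, and nothing about the members is read from it.

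In the order of all 43 nuclear tRNA groups by ratio of nuclear tRNA shares, with all gene copies, the last 2 places in reads and in cDNAs were held by Ser(AGA) and Ser(UGA), at 42 and 43. The next groups up in reads were Ala(UGC) at 0.337, Arg(CCU) at 0.345, Ser(CGA) at 0.392 and Glu(UUC) at 0.402, whose intervals did not reach that of Ser(AGA). Leu(GAG) was at place 3 in reads and 2 in cDNAs. Gln(CUG), the product of CDC65, stood above it in reads with 23 reads in Sni445-HTP cells and 1 in untagged cells, a ratio of 1127 (183 to 46444). Val(CAC) also stood above it, with 49 reads in Sni445-HTP cells and 0 in untagged cells. With the control set to the floor of 3 reads, its ratio was 800.7, which is a lower bound and has no counting interval. These neighbours of Leu(GAG) cannot be ordered at their counts. The next group, Trp(CCA), had 431 reads in Sni445-HTP cells and 1941 in untagged cells, a ratio of 10.9. Leu(UAG) was at place 16, Leu(UAA) at 18, Ser(GCU) at 27, Leu(CAA) at 28 and Ser(CGA) at 39 in reads.

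**Figure D2:**
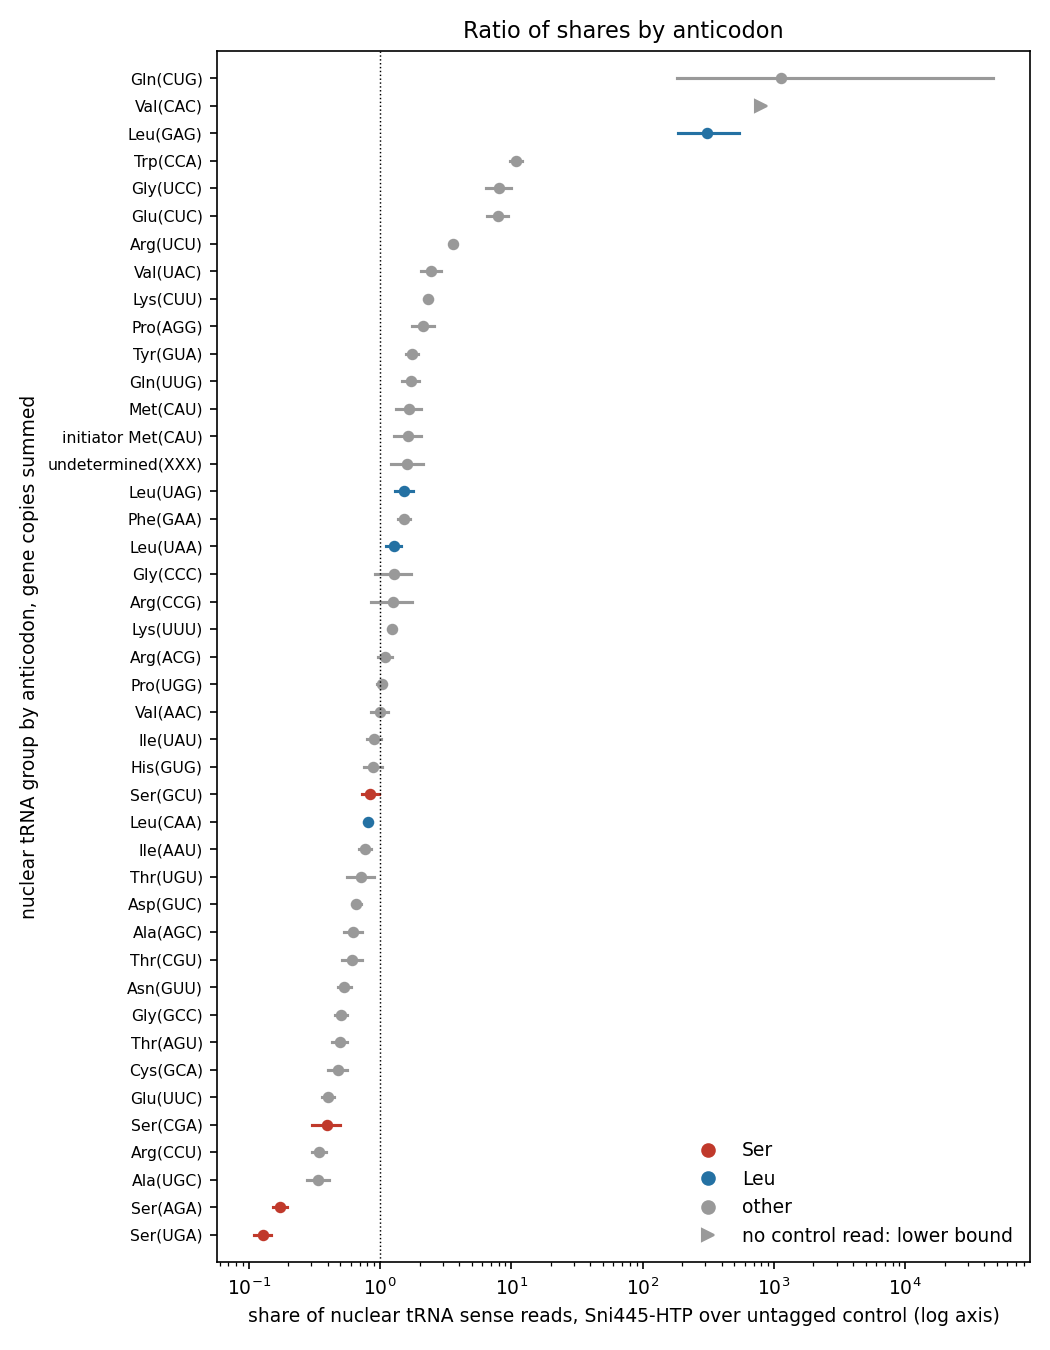
Share of nuclear tRNA sense reads in Sni445-HTP cells over that in untagged cells for the 43 nuclear tRNA groups, gene copies summed with those under genetic names, on a log axis. Points are ratios and bars are 95% intervals for counting error. The triangle, marked as a lower bound, is a group without control reads, computed with the floor of 3 and drawn without its interval. Leucine groups (blue) lie at 0.808 and above with Leu(GAG) at 307.7, and serine groups (red) lie at 0.844 and below, with Ser(AGA) and Ser(UGA) at the bottom.

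The tRNA share ratios rest on a denominator in which Arg(UCU) stood apart. Arg(UCU) was 33.7% of nuclear tRNA reads in Sni445-HTP cells and 9.42% in untagged cells. One of its copies, tR(UCU)J1, had 3286 reads from 52 cDNAs in Sni445-HTP cells and 8249 reads from 328 cDNAs in untagged cells. In cDNAs, Arg(UCU) was 7.42% in Sni445-HTP cells and 9.42% in untagged cells. Without Arg(UCU) the serine and leucine tRNAs had a ratio of nuclear tRNA shares of 0.738 in reads, and Ser(AGA) had one of 0.237.

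**Figure D3:**
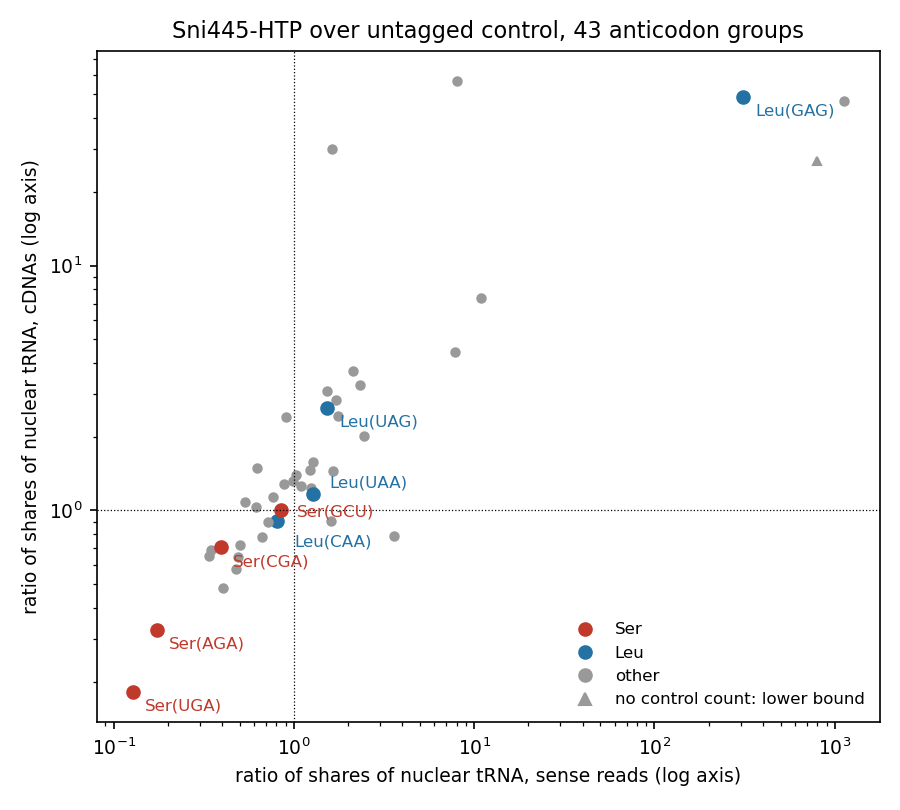
Ratio of nuclear tRNA shares, Sni445-HTP over untagged control, in reads (x axis) and in distinct cDNAs (y axis) for the 43 nuclear tRNA groups, both on log axes, with dotted lines at equal shares. Ser(AGA) and Ser(UGA) are lowest on both axes, at 0.174 and 0.128 in reads and at 0.326 and 0.182 in cDNAs, and Leu(GAG) is among the highest on both.

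Repeated reads of these tRNAs were more frequent in untagged cells. The members had 2.03 reads per cDNA in Sni445-HTP cells and 28.7 in untagged cells, and the other nuclear tRNAs 3.27 in Sni445-HTP cells and 32.2 in untagged cells. Over all features the order was opposite, with 83.7 reads per cDNA in Sni445-HTP cells and 28.6 in untagged cells. By anticodon the range was 1.79 for Ser(AGA) to 3.65 for Leu(GAG) in Sni445-HTP cells, and 6 for Leu(GAG) to 38.3 for Leu(UAG) in untagged cells, with Ser(CGA) at 59.0. The groups of other tRNAs ranged from 1.63 to 13.8 reads per cDNA in Sni445-HTP cells and from 1 to 359.7 in untagged cells. Their medians were 2.26 in Sni445-HTP cells and 29.8 in untagged cells. Repeated reads differed between the libraries together with the tRNA ratios, and their part in the ratios was not tested. Every member anticodon but Leu(GAG) had a higher tRNA share ratio in cDNAs than in reads, or one within the interval of the read ratio.

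A larger part of the reads on serine and leucine tRNAs was short in Sni445-HTP cells. Under the limit of 30 on read length, 574 of the members' reads were kept in Sni445-HTP cells, 36.9% (34.5 to 39.4), against 17372 in untagged cells, 12.3% (12.2 to 12.5). In the other nuclear tRNAs 53.1% of reads were kept in Sni445-HTP cells and 15.2% in untagged cells. Arg(UCU) weighs on the former, with 4807 of its 5475 reads kept in Sni445-HTP cells. By anticodon, the median of the other groups was 37.2% in Sni445-HTP cells and 7.83% in untagged cells. In cDNAs the members had 31.9% and the other tRNAs 32.6% kept in Sni445-HTP cells, against 10.3% and 11.9% in untagged cells. Over all features 56.3% of reads were kept in Sni445-HTP cells and 41.2% in untagged cells. With Sni445-HTP the anticodons of both families, all copies included, had 30.2% to 45.5% of reads within the limit, except Leu(GAG) with 73.5%. The control anticodons were far more unequal. Ser(GCU) had 30.2% within the limit in Sni445-HTP cells and 0.0662% in untagged cells, where only 7 of its reads were that short. Leu(UAA) had 42.0% within it in Sni445-HTP cells and 0.800% in untagged cells, and Ser(CGA) 45.5% in Sni445-HTP cells and 0.799% in untagged cells. For Ser(AGA) the shares were 34.2% in Sni445-HTP cells and 8.55% in untagged cells, for Ser(UGA) 32.1% in Sni445-HTP cells and 15.7% in untagged cells, and for Leu(CAA) 30.4% in Sni445-HTP cells and 14.9% in untagged cells. The order was the other way for Leu(UAG), with 41.6% of reads within the limit in Sni445-HTP cells (33.9 to 49.6) and 70.3% in untagged cells (69.1 to 71.6). In cDNAs its shares were close, at 41.3% in Sni445-HTP cells and 45.2% in untagged cells. For Leu(GAG), 83 of 113 reads were within the limit in Sni445-HTP cells and 18 of 18 in untagged cells, and the 30 longer reads were found in Sni445-HTP cells alone.

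**Figure D4:**
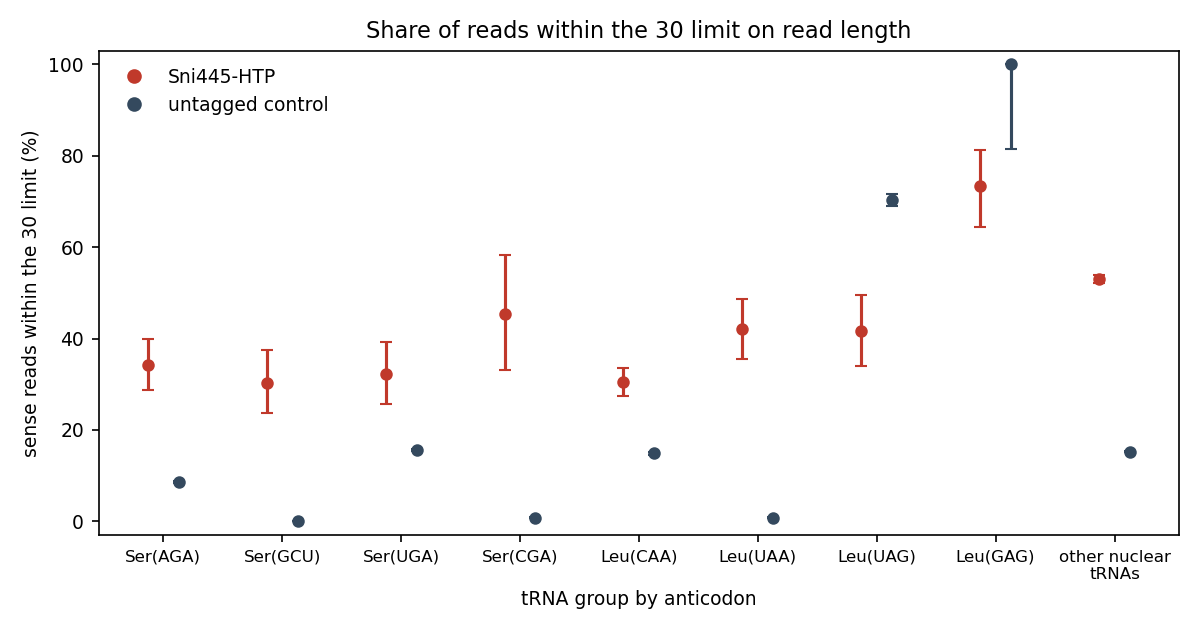
Percent of sense reads within the limit of 30 on read length for the serine and leucine anticodons, gene copies summed, and for the other nuclear tRNAs. Points are shares, Sni445-HTP left of the untagged control, and bars are exact 95% intervals for counting error. Most groups are higher in Sni445-HTP cells, such as Ser(GCU) with 30.2%, against 0.0662% in untagged cells. Leu(UAG), with 41.6% in Sni445-HTP cells and 70.3% in untagged cells, and Leu(GAG) are the exceptions.

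Genes with introns and genes without did not have the same ratios. The 13 members with an intron in R64, the copies of Leu(CAA), Leu(UAG) and Ser(GCU), had 955 reads in Sni445-HTP cells and 50398 in untagged cells, a ratio of nuclear tRNA shares of 0.929 (0.870 to 0.990), and 1.04 (0.937 to 1.15) in cDNAs. The 18 members without an intron had 599 reads in Sni445-HTP cells and 90591 in untagged cells, a ratio of 0.324 (0.299 to 0.351), and 0.503 (0.444 to 0.567) in cDNAs. The group without introns holds both the lowest ratio, Ser(AGA), and the highest, Leu(GAG), so the groups differ in anticodon as well as in intron. Ser(AGA) had 292 of its reads in Sni445-HTP cells and 82420 of those in untagged cells. Its other anticodons, Leu(UAA) at 1.17 and Leu(GAG) at 307.7 in reads, lay above the 0.929 of the group with introns. The lower ratio of the group without introns therefore rests on Ser(AGA). Among the other tRNAs, leaving out the initiator and the undetermined gene, 6 anticodon groups with introns had a median ratio of 1.38 in reads and 27 without had one of 0.992. In cDNAs the medians were 2.42 and 1.26. The counts do not separate precursor from mature tRNA.

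The mitochondrial leucine tRNA tL(UAA)Q and serine tRNA tS(UGA)Q2 had 2 reads each in Sni445-HTP cells and 0 in untagged cells. These counts are at or under the floor of 3 reads, and no ratio was computed. The mRNA of KRE33 had 2 reads from 1 cDNA in Sni445-HTP cells and 0 in untagged cells. The mRNAs of the synthetases had 13 reads from 2 cDNAs (SES1) and 7 reads from 2 cDNAs (CDC60) in Sni445-HTP cells, and 0 in untagged cells. TAN1, SNI445 (YNL050C) and the serine tRNA methyltransferase genes TRM44 and TRM140 had no entry under the 1000 limit in either library. Of these 7 genes, none had over 2 distinct cDNAs.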

How the data were processed

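The authors aligned reads to the EF2.59 genome with Novoalign 3.09.00, placing reads that match several sites at random, after quality control with FastQC 0.12.1. They deposited whole counts of sense reads, antisense reads and distinct cDNAs per feature, made with Counters 1.4.4 by the file header, each under a limit of 30 and one of 1000 on read length. How reads were collapsed to cDNAs is not given in the sources used here. Mapped reads numbered 21867727 in the Sni445-HTP library and 12654405 in the untagged one.

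The values computed from these counts (Python 3.11.15, numpy 2.4.6, scipy 1.17.1) were sums over gene copies of an anticodon, shares with exact Clopper-Pearson 95% intervals, and ratios of shares with exact conditional binomial intervals. Odds ratios (leucine to serine, and members to other nuclear tRNAs) have conditional exact intervals. Intervals cover counting error only. PCR copies are not independent molecules, but the intervals on reads take each read as independent. They are therefore too narrow where a cDNA has many reads, as in untagged cells, with 28.7 reads per cDNA over the members. With 1 library per strain there is no test, and calls are by size alone: a share at least 2 times or at most 0.5 of that in untagged cells, with at least 10 counts over both libraries for single genes. A control count of 0 was set to 3 counts, and the ratio is then a lower bound. cDNA shares use the sum of cDNA counts over all features (322543 in Sni445-HTP cells, 804158 in untagged cells), which is not split by direction. The calls were also run on counts simulated from the untagged library, with 200 of 1166 features raised 8 times. By the 2-fold rule 100% of these were called, and 4 unchanged features. The simulation had neither PCR copies nor variation between replicates, so it does not show how the calls behave under these. It raised only features with far more than 10 control reads and lowered none. It therefore does not show whether a lower share, or a raised share at few reads, would be called.

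The text names each nuclear serine and leucine anticodon, each copy over 2 times or under 0.5 of its anticodon's median, the 3 highest and 3 lowest other anticodons, the mitochondrial serine and leucine tRNAs, and 7 mRNAs of the pathway. Copies of Ser(GCU), Leu(UAG) and Ser(UGA), and Arg(UCU), were named after their values were seen. Members and lists were chosen with earlier results of these data known. R64 was used only for sequences, introns and places, by name, anticodon and chromosome. It is not the build of the counts. Alternatives were the 30 limit, reads over it, cDNAs, antisense counts, other denominators, median-of-ratios and TMM scaling (edgeR 4.0.16 in R 4.3.3), a 1.5-fold rule and leaving out Leu(CAA). The genes under genetic names, and leaving out tS(AGA)D1 or Arg(UCU), and the odds ratios to other nuclear tRNAs, were added after seeing the data. Plots were drawn with matplotlib 3.10.9. Read positions, and the read coverage tracks made by the authors, were not used here.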

Additional observations from a re-analysis of the deposited data

How the results depend on the processing

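With 1 library per strain, the ratios have no replicate error, and serine and leucine tRNAs with few reads in Sni445-HTP cells, such as tS(AGA)D3 with 4, are limited by counting. No paired analysis was possible because there is 1 library per strain. The ratio of shares of all sense counts, 0.00938 for the serine and leucine tRNAs, was under 1 in every alternative, but its size depended on the denominator. It was 0.415 without rRNA, snR4, snR45 and intergenic features, 0.380 by the median of ratios, 0.328 by TMM and 0.388 in cDNAs. The median of ratios was 0.0290 over 1044 features. The ratio was 0.0206 under the 30 limit, 0.00812 with antisense counts, 0.00754 without Leu(CAA), 0.00638 per mapped read, 0.00745 with the genes under genetic names and 0.0131 without tS(AGA)D1. The ratio of nuclear tRNA shares, 0.540, was 0.459 under the 30 limit, 0.676 over it, 0.735 in cDNAs, 0.434 without Leu(CAA), 0.738 without Arg(UCU), 0.432 against the other nuclear tRNAs alone, 0.429 with the genetic names and 0.757 without tS(AGA)D1. The number of anticodons at 2 times the control or more, 1 as reported, was 3 under the 30 limit, and it was 2 over it, in cDNAs, at 1.5 times and without Arg(UCU).

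Of 82 alternatives for single anticodons, 52 moved the ratio beyond its counting interval without a change of direction and 12 turned its direction. A turn means only that the ratio lay on the other side of 1. The interval held 1 for Ser(GCU) over the 30 limit, in cDNAs and without Arg(UCU), and for Leu(UAA) against the other nuclear tRNAs. It also held 1 for the ratio of all counts of Leu(UAG) on the reduced denominator and by the median of ratios. For Ser(GCU) the tRNA share ratio, 0.844, was 109 under the 30 limit, on 7 control reads, 1.03 over it, 1.00 in cDNAs and 1.15 without Arg(UCU), and the ratio of all counts was 4.90 under the 30 limit. For Leu(CAA) the tRNA share ratio was 1.28 over the 30 limit and 1.18 without Arg(UCU). For Leu(UAA) it was 0.932 against the other nuclear tRNAs alone. For Leu(UAG) it was 0.256 under the 30 limit and 5.23 over it, and the ratio of all counts was 1.39 in cDNAs, 1.17 on the reduced denominator and 1.08 by the median of ratios. The cause was not tested. Leu(GAG) had 0 control reads over the 30 limit, and no ratio was computed there. Its tRNA share ratio was 64.0 under the limit, and that of Leu(UAA) 16.4. The tRNA share ratio of Ser(AGA) was 0.139 to 0.326 over its alternatives.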

Other observations

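The gene tX(XXX)D, of undetermined specificity and with CCG at bases 11 to 13 like the serine and leucine tRNAs, had 55 reads in Sni445-HTP cells and 1673 in untagged cells. Its cDNAs numbered 24 in Sni445-HTP cells and 125 in untagged cells. Its ratio of nuclear tRNA shares was 1.61 in reads and 0.905 in cDNAs. The mitochondrial tRNAs together had 35 reads in Sni445-HTP cells on 9 genes and 0 in untagged cells.

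The 3 copies of Ser(UGA) and the copy tS(AGA)D1 had similar numbers of cDNAs in untagged cells, 711 to 727 and 724, while the other Ser(AGA) copies had 21 to 284 there. With Sni445-HTP the same 4 genes had 24 to 35 cDNAs, against 2 to 20 for the other Ser(AGA) copies.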
